A study of Homo sapiens with 6 samples.

Results

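The E2F and DP transcription factors comprise the 10 genes E2F1 to E2F8, TFDP1 and TFDP2, chosen by name from a table of 57500 Ensembl gene identifiers, and all 10 were found and tested. RNA was measured in HEK293T cells, an established line of human embryonic kidney origin, labelled wild type and cultured in DMEM with serum. Of the 6 libraries, 3 are labelled vector control and titled mock, and 3 come from cells given a pcDNA3 plasmid carrying PRMT1 with the PolyJet reagent. PRMT1 is the arginine methyltransferase that places most asymmetric dimethylarginine in human cells, and E2F1 protein is one of its known substrates. No duration of expression or agent for the control cells is given in the labels, and they do not say whether replicates were separate cultures, so p-values measure the spread between libraries, which may be technical. Values are TPM, read counts per unit of exonic length scaled to a total of 1000000 per library.

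E2F proteins bind promoters of genes needed for DNA replication and mitosis, and E2F1 to E2F6 do so as dimers with a DP protein encoded by TFDP1 or TFDP2. E2F1, E2F2 and E2F3 are mainly activators held in check by the retinoblastoma protein, E2F4 and E2F5 act mainly as repressors with the related pocket proteins RBL1 and RBL2, E2F6 represses through Polycomb proteins, and E2F7 and E2F8 repress without a DP partner. HEK293T cells carry the adenovirus E1A and SV40 large T proteins, both of which bind pocket proteins and release E2F.

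Several E2F genes are themselves known E2F targets, so promoter stretches of the 4 members whose window held an E2F element are shown. Sequences are from RefSeq on GRCh38.p14, which gave a window of 250 bases before to 50 after the start for 8 of the 10 genes, all but E2F5 and E2F8. The words searched on both strands were TTTCCCGC, TTTCGCGC, TTTGCCGC and TTTGGCGC, and the match is in capitals, written as its reverse complement where it lies on the strand opposite to the gene. Each stretch is 100 bases and is written 5′ to 3′ on the gene's strand, at chr20:33686405-33686504 (minus) for E2F1, chr1:23531234-23531333 (minus) for E2F2, chr6:20401779-20401878 (plus) for E2F3 and chr13:113584621-113584720 (plus) for TFDP1.
E2F1: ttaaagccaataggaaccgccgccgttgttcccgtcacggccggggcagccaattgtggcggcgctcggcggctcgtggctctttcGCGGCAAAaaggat
E2F2: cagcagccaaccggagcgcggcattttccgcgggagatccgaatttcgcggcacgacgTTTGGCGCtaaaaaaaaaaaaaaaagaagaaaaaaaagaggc
E2F3: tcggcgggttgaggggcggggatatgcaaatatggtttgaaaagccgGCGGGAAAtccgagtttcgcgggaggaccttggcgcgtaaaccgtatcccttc
TFDP1: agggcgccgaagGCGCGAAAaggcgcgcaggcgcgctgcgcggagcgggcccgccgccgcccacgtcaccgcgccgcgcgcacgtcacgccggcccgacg

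The stretches of E2F2 and E2F3 end at the RefSeq start, and those of E2F1 and TFDP1 end 19 and 32 bases before it. An E2F1 element at −33 to −26 from the start is followed by a further one, TTTGGCGC, at −20 to −13, mostly beyond the printed stretch. At least 1 E2F element was present in the windows of 4 of the 8 genes, against 3.99% of all 27305 genes with a window, 27 of 48 G1/S targets (56.2%) and 3 of 23 G2/M targets. The matches describe letters in these windows and are not shown to be bound. Of the 4 genes with an element, E2F1 was lower in the PRMT1 libraries and E2F2, E2F3 and TFDP1 were higher in TPM as deposited, TFDP1 losing that direction under other scalings as given with its values. The genes with a window but no element, E2F4, E2F6, E2F7 and TFDP2, were also higher as deposited. The call of E2F4 and the direction of TFDP2 depended on the scaling.

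Recovered depth was 18196813 to 23163999 reads per library. PRMT1 itself stood at 377.7, 396.9 and 368.0 TPM in the controls against 71660, 62890 and 84920 TPM in the PRMT1 libraries, so each library matched its label. Over the 15341 tested genes the log2 fold change had a median of 0.30 as deposited and 0.006 after median-of-ratios scaling, which sets the typical gene equal between libraries. Differences given here in TPM therefore include a shift, which was not the same for all genes. By level its median ran from 0.47 in decile 4 to −0.12 in the highest decile. By GC content it ran from 0.48 in the lowest decile to 0.04 in the highest. A single factor per library does not remove such trends. Size factors set 1 library apart in each group. Control library 3 had a factor of 0.822 against 0.918 and 0.929 in the other controls, and PRMT1 library 2 had 1.24 against 1.09 and 1.10. Among markers of the labelled kidney tissue, 2 of 10 tubule genes reached 1 TPM in at least 3 libraries (PAX2 and LRP2), and UMOD, CDH16 and PAX8 stayed near 0, whereas 4 of 5 epithelial markers were present. Of the neuronal markers, 5 of 5 were present, with a summed level of 738.5 to 827.9 TPM in the controls against 472.4 to 543.4 TPM in the PRMT1 libraries. Nearly all of that sum was NEFM and NEFL. STMN2 was also lower, INA was higher (6.87 to 9.09 against 10.6 to 12.7 TPM) and RBFOX3 overlapped between the groups. The fibroblast sum, nearly all COL1A1, was 12.4 to 17.1 and 9.34 to 10.8 TPM. The part of these markers in the results was not tested, while endothelial markers summed to at most 0.682 TPM and CD3E was listed at 0 in every library.

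Of the 10 members, 9 were higher and 1 was lower in the PRMT1 libraries in TPM as deposited (limma, Benjamini-Hochberg adjusted p under 0.05 over all tested genes). In the same fit 40.3% of all tested genes were higher, 8.64% lower and 49.0% called in either direction. After median-of-ratios scaling 5 members were higher and 1 lower, against 23.5% and 24.1% of all genes. Quantile normalization also gave 5 higher and 1 lower, against 20.3% and 19.4%. A correction for GC content gave 6 higher and 1 lower, against 23.7% and 25.4%. The 5 that stayed higher in all 20 alternative settings were E2F2, E2F3, E2F6, E2F7 and E2F8, and E2F1 stayed lower in all 20. The values of the groups did not overlap for any of the 10, 9 lying higher and 1 lower. Groups were likewise separate for 61.4% of all tested genes, 49.8% higher and 11.6% lower. Differences are PRMT1 minus control on log2(TPM + 1), which makes low genes look less changed. In bulk RNA, fewer cells with a transcript and less of it per cell cannot be told apart. For each member alone the exact two-sided permutation test gave p = 0.1, the smallest that 3 against 3 libraries allow.

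**Figure D1:**
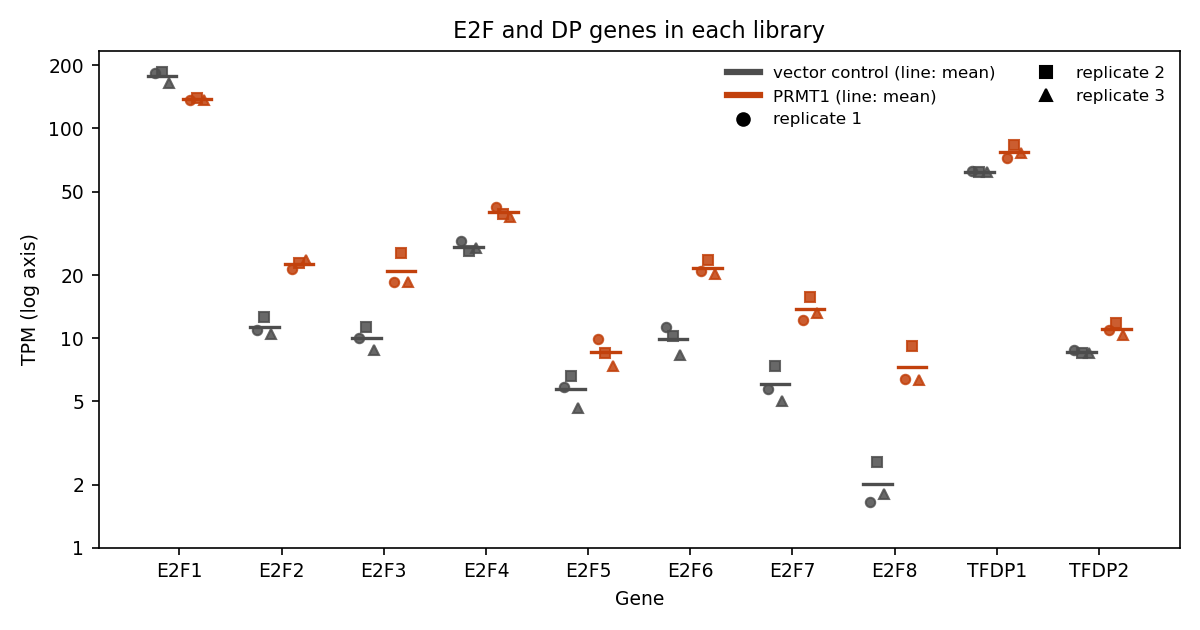
TPM of each E2F and DP gene in each library on a log axis, with vector control in grey, PRMT1 in orange, lines at the group means and marker shapes for the replicate. Only E2F1 lies lower in the PRMT1 libraries, and E2F8 shows the widest gap, from a mean of 2.01 to 7.29 TPM.

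Among the activators, E2F1 was lower while E2F2 and E2F3 were about 2-fold higher. E2F1 (ENSG00000101412, chromosome 20, 33675683 to 33686404, minus strand, GRCh38 with GENCODE 29) drives S phase entry and can also induce apoptosis. It stood at 184.2, 185.5 and 164.1 TPM in the controls against 136.8, 140.3 and 137.3 TPM in the PRMT1 libraries. The control values lay 1.29-fold above the others on average, and the PRMT1 libraries were closely grouped (177.9 ± 12.0 against 138.1 ± 1.86 TPM, SD, n = 3 each). On the log2 scale the difference was −0.36 (SE 0.071, adjusted p = 0.0047 by limma), and it ranged from −0.72 after median-of-ratios scaling to −0.25 when PRMT1 was removed before rescaling. E2F1 rested on 1960 to 2887 reads per library.

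E2F1 is in the highest decile of genes both by level and by GC content of its transcripts (62.5%). Of the 192 other genes in both of these deciles, 64.6% were lower and 5.21% higher, with a median log2 fold change of −0.31. E2F1 lay 0.05 below that median, which is within its standard error. In the highest decile by level alone 33.9% of genes were lower and 14.5% higher (median −0.12), and in the highest decile by GC content alone 21.5% were lower and 25.2% higher (median 0.04).

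E2F2 (ENSG00000007968, chromosome 1, 23506430 to 23531220, minus strand) had 10.97, 12.61 and 10.48 TPM in the controls against 21.36, 22.83 and 23.61 TPM in the PRMT1 libraries. All PRMT1 values were well above the highest control. The means were 11.4 ± 1.11 and 22.6 ± 1.14 TPM (SD, n = 3 each), with 0.94 on the log2 scale (SE 0.10, adjusted p = 0.000405 by limma; 0.57 to 1.04 over the settings). E2F3 (ENSG00000112242, chromosome 6, 20401906 to 20493715, plus strand), an activator whose gene also gives a shorter isoform, had 9.99, 11.31 and 8.76 TPM against 18.54, 25.53 and 18.60 TPM. PRMT1 library 2 was the highest, and the other 2 PRMT1 libraries were nearly equal. The log2 fold change of E2F3 was 0.98 (SE 0.15, adjusted p = 0.0017 by limma; 0.59 to 1.09), from 10.0 ± 1.28 to 20.9 ± 4.02 TPM (SD, n = 3 each). Values per gene do not separate the E2F3 isoforms. Of 3 small genes inside E2F3, E2F3-IT1 was listed at 0, and RN7SL128P (0.550 TPM) and RNU6-141P (2.95 TPM) were above 0 in 1 library each.

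Of 159 other genes in the deciles of level and GC content that hold E2F2, 39.6% were higher, with a median log2 fold change of 0.20, and E2F2 lay 0.74 above it. E2F3 and E2F6 fall in the same pair of deciles, where 50.6% of 166 other genes were higher with a median of 0.34, and these 2 members lay 0.64 and 0.71 above it. These comparisons are descriptions without a test.

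**Figure D2:**
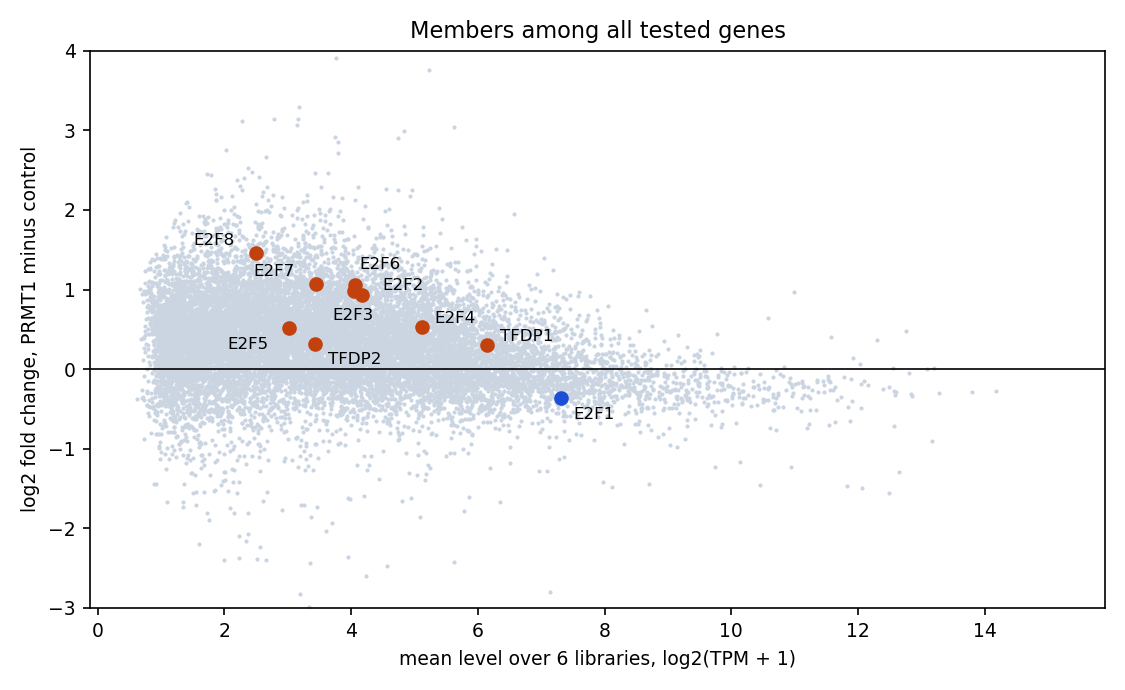
Log2 fold change of PRMT1 minus control against the mean level, log2(TPM + 1), for all 15341 tested genes (grey, with 6 genes beyond the vertical axis) and the E2F and DP genes (orange higher, blue lower). E2F1, at the right, lies where the cloud turns below 0, while E2F2, E2F3, E2F6, E2F7 and E2F8 lie in its upper part.

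Of the repressors that work with DP partners, E2F6 was higher in every setting, whereas the calls of E2F4 and E2F5 depended on the scaling. E2F4 (ENSG00000205250, chromosome 16, 67192169 to 67198918, plus strand), the main E2F of resting cells, stood at 29.11, 26.14 and 26.82 TPM in the controls against 42.40, 39.02 and 37.93 TPM in the PRMT1 libraries. The groups were separate, and the mean was 1.45-fold higher with PRMT1 (27.4 ± 1.56 against 39.8 ± 2.34 TPM, SD, n = 3 each). Its log2 difference was 0.52 (SE 0.085, adjusted p = 0.00214 by limma). It was 0.18 after median-of-ratios scaling (limma adjusted p = 0.181) and 0.26 after quantile normalization (limma adjusted p = 0.0598), and it passed in the other 18 settings.

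E2F5 (ENSG00000133740, chromosome 8, 85177225 to 85217158, plus strand), a partner of RBL2, had 5.85, 6.59 and 4.66 TPM against 9.88, 8.53 and 7.36 TPM. The lowest PRMT1 value was close to the highest control. For E2F5 the log2 difference was 0.52 (SE 0.15, adjusted p = 0.0254 by limma), from 5.70 ± 0.974 to 8.59 ± 1.26 TPM (SD, n = 3 each), and E2F5 passed in 10 of the 20 settings. After GC correction it was 0.02 (limma adjusted p = 0.93) and after quantile normalization 0.06 (limma adjusted p = 0.757). The call was also lost without control library 1 (limma adjusted p = 0.0574), control library 3 (0.0585), PRMT1 library 1 (0.0917) or PRMT1 library 2 (0.0602). E2F5 has the lowest GC content of the 10 (38.3%), and 60% of the 195 other genes in its deciles of level and GC content were higher, with a median of 0.58. The end of E2F5 overlaps RBIS on the opposite strand, which stood at 31.6 to 44.0 TPM, and without a stated strand setting reads of the overlap cannot be told apart. An antisense gene near the E2F5 start, ENSG00000254208, was at 0.327 to 2.92 TPM.

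E2F6 (ENSG00000169016, chromosome 2, 11444375 to 11466177, minus strand), the Polycomb-linked repressor, stood at 11.31, 10.19 and 8.31 TPM in the controls against 20.95, 23.72 and 20.13 TPM in the PRMT1 libraries. Every PRMT1 value exceeded every control by a wide margin. The means were 9.94 ± 1.52 and 21.6 ± 1.89 TPM (SD, n = 3 each), a ratio of 2.17. This was 1.05 on the log2 scale (SE 0.13, adjusted p = 0.000671 by limma; 0.67 to 1.16 over the settings).

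The atypical repressors E2F7 and E2F8, which carry a pair of DNA-binding domains each and need no DP partner, had the largest log2 fold changes of the 10 members in TPM as deposited. That of E2F6 was nearly as large as that of E2F7 (1.05 against 1.07). E2F6 exceeded E2F7 after quantile normalization (0.67 against 0.63) and GC correction (0.667 against 0.659), but not after median-of-ratios scaling (0.72 against 0.75). E2F7 (ENSG00000165891, chromosome 12, 77021247 to 77065580, minus strand) was at 5.75, 7.37 and 5.01 TPM in the controls against 12.26, 15.80 and 13.13 TPM in the PRMT1 libraries. Library 2 was the highest of its group on both sides. PRMT1 minus control came to 1.07 on the log2 scale (SE 0.16, adjusted p = 0.00133 by limma; 0.63 to 1.20), from 6.05 ± 1.21 to 13.7 ± 1.85 TPM (SD, n = 3 each). E2F8 (ENSG00000129173, chromosome 11, 19224063 to 19241620, minus strand) was at 1.66, 2.55 and 1.81 TPM against 6.39, 9.18 and 6.31 TPM. The control values rest on 43, 63 and 44 reads and the PRMT1 values on 173, 245 and 149, so the groups are far apart even at this depth. The mean was 3.63-fold higher (2.01 ± 0.478 against 7.29 ± 1.63 TPM, SD, n = 3 each), and the log2 fold change, understated at this level by the added 1 TPM, was 1.46 (SE 0.18, adjusted p = 0.000774 by limma; 0.80 to 1.81). E2F8 lies inside CSRP3-AS1 on the opposite strand, which did not exceed 0.661 TPM in any library.

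The ratio of E2F8 to E2F7 was 0.288, 0.346 and 0.362 in the controls and 0.522, 0.581 and 0.481 in the PRMT1 libraries, without overlap. Of the other genes in the deciles of level and GC content that hold E2F7 and E2F8, 57.4% of 169 and 57.3% of 138 were higher, with median log2 fold changes of 0.59 and 0.56. E2F7 lay 0.49 and E2F8 0.90 above these medians.

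**Figure D3:**
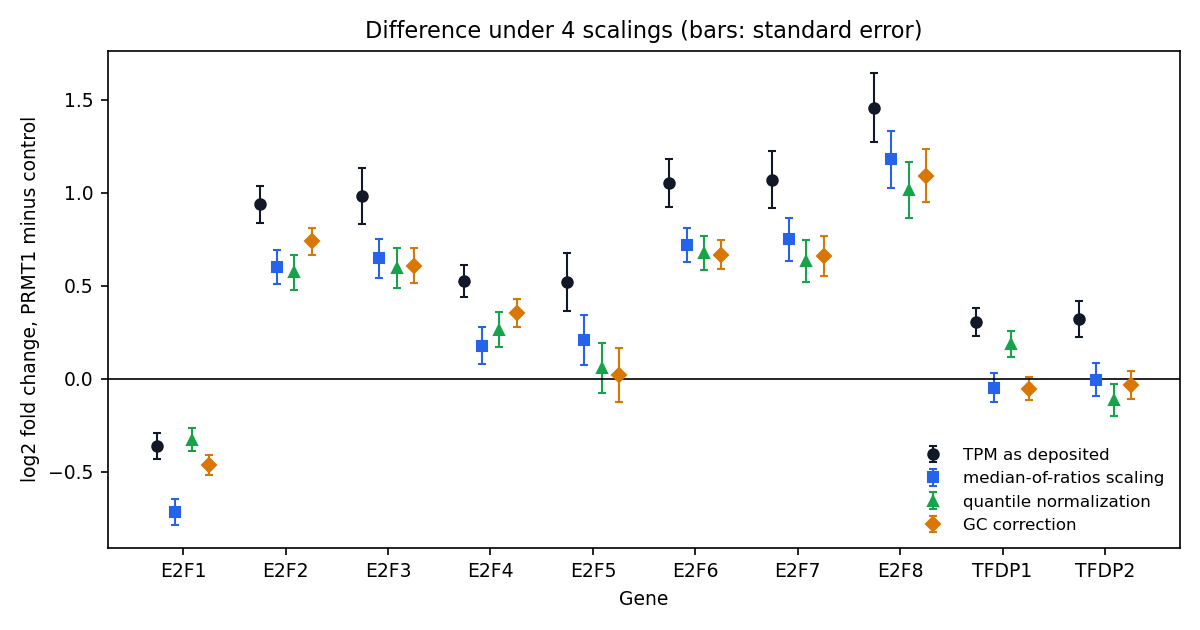
Log2 fold change of each E2F and DP gene, PRMT1 minus control, in TPM as deposited and after 3 other treatments of the values, with bars for the standard error. E2F2, E2F3, E2F6, E2F7 and E2F8 stay above 0 and E2F1 below 0 under all 4, whereas E2F5, TFDP1 and TFDP2 come to lie at or near 0 under at least 1 of them.

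The DP genes differed least of the 10 in TPM as deposited, and their direction depended on the scaling. TFDP1 (ENSG00000198176, chromosome 13, 113584721 to 113641470, plus strand), which encodes the main dimer partner, had 62.80, 62.11 and 61.95 TPM in the controls against 72.37, 83.02 and 76.38 TPM in the PRMT1 libraries. The controls were nearly identical and the PRMT1 libraries all higher. The log2 difference was 0.30 (SE 0.076, adjusted p = 0.0126 by limma), from 62.3 ± 0.451 to 77.3 ± 5.38 TPM (SD, n = 3 each). It equalled the median of all tested genes to 2 decimals, was −0.05 after median-of-ratios scaling (limma adjusted p = 0.626) and −0.05 after GC correction (limma adjusted p = 0.505).

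TFDP2 (ENSG00000114126, chromosome 3, 141944428 to 142149544, minus strand), the second DP gene, had 8.81, 8.53 and 8.52 TPM against 10.93, 11.79 and 10.34 TPM. As for TFDP1, the controls were tightly grouped and the PRMT1 values all higher. TFDP2 gave 0.32 on the log2 scale (SE 0.097, adjusted p = 0.0281 by limma), from 8.62 ± 0.162 to 11.02 ± 0.726 TPM (SD, n = 3 each). It was −0.01 after median-of-ratios scaling, −0.11 after quantile normalization and −0.04 after GC correction (limma adjusted p = 0.966, 0.323 and 0.714). The call of TFDP2 was also lost without control library 1 or 2 (limma adjusted p = 0.0716 and 0.0756) and without PRMT1 library 1 or 2 (0.0831 and 0.0597). The ratio of TFDP1 to TFDP2 was 7.23 ± 0.083 in the controls and 7.02 ± 0.382 in the PRMT1 libraries (SD, n = 3 each), with overlapping values. TFDP2 contains the pseudogene RPL19P6 on the same strand, listed at 0.304 to 3.56 TPM, and RNU6-425P on the opposite strand, listed at 0.

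Ratios within a library do not change with a common scaling factor and show how the E2F transcripts were divided. They are not free of shifts that differ with level and GC content. Other genes in the deciles of E2F1 had a median log2 fold change of −0.31. For the deciles of E2F2 to E2F8 these medians were 0.11 to 0.59. The part of this trend in the ratios and shares was not tested. E2F1 made up 71.16, 70.73 and 71.36% of the summed TPM of E2F1 to E2F8 in the controls and 50.94, 49.23 and 51.93% in the PRMT1 libraries. The difference between the means was many times the spread within either group (71.1 ± 0.325% and 50.7 ± 1.36%, SD, n = 3 each). The sum itself was 250.3 ± 17.7 TPM in the controls against 272.6 ± 10.8 TPM in the PRMT1 libraries, and without E2F1 it was 72.4 ± 5.79 and 134.5 ± 9.08 TPM (SD, n = 3 each).

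The shares of all the other E2F genes were larger with PRMT1, without overlap. E2F2 went from 4.53 to 8.30% of the E2F sum, E2F3 from 3.99 to 7.64% and E2F6 from 3.96 to 7.91%. E2F7 went from 2.40 to 5.03% and E2F8 from 0.801 to 2.66%. The changes were smaller for E2F4, from 10.96 to 14.6%, and E2F5, from 2.27 to 3.15%. Since shares sum to a fixed total, a smaller share of E2F1 raises the others.

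By role, the atypical E2F7 and E2F8 together stood at 0.0403 ± 0.0062 of the activators E2F1 to E2F3 in the controls and 0.115 ± 0.0148 in the PRMT1 libraries (SD, n = 3 each). The same ratio for E2F4 to E2F6 was 0.216 ± 0.0103 and 0.386 ± 0.0258 (SD, n = 3 each). Both ratios were separate between the groups. Within the activators, E2F2 stood at 0.0638 ± 0.0042 of E2F1 in the controls and 0.164 ± 0.0080 with PRMT1 (SD, n = 3 each). E2F1 exceeded TFDP1 2.86-fold in the controls and 1.79-fold in the PRMT1 libraries. The DP sum was 0.294 ± 0.0194 of the sum of its possible partners E2F1 to E2F6 in the controls and 0.351 ± 0.0160 in the PRMT1 libraries (SD, n = 3 each).

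**Figure D4:**
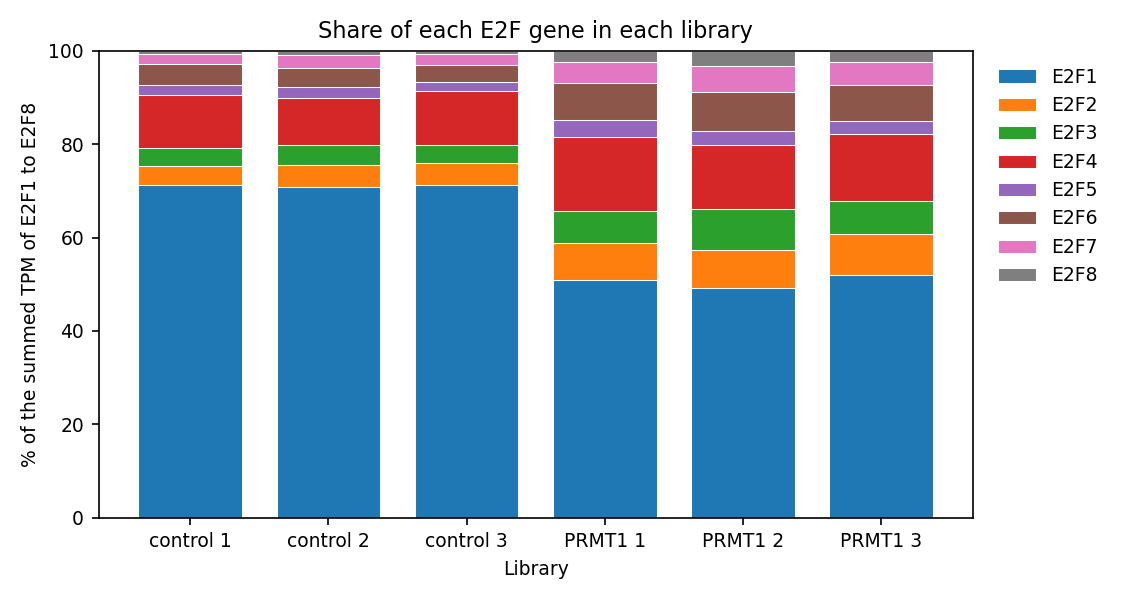
Share of each E2F gene in the summed TPM of E2F1 to E2F8, in percent, for each library. E2F1, the lowest segment, holds 70.7 to 71.4% in the 3 control libraries and 49.2 to 51.9% in the 3 PRMT1 libraries.

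TPM is per length, so levels can be ordered between genes, with a limit. The recovered reads fit a length over all annotated exons of a gene, from 2503 bases for E2F1 to 11897 for TFDP2. A gene with long exons that these cells do not use would be placed too low. The shares of the E2F sum depend on these lengths as well. E2F1, TFDP1 and E2F4 held the first 3 places in both groups, each with a range clear of the next. In the controls E2F2, E2F3, E2F6 and TFDP2 followed, each overlapping its neighbour, then E2F7 and E2F5, which also overlapped, and E2F8 came last alone. In the PRMT1 libraries E2F2, E2F6 and E2F3 overlapped in the middle, E2F7 and TFDP2 stood clear of their neighbours, and E2F5 and E2F8 overlapped at the end. E2F7 thus lay below TFDP2 in the controls and above it in the PRMT1 libraries, without overlap on either side.

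The libraries that stood apart by size factor also stood apart within the members. Control library 3 was the lowest control for 8 of the 10 genes, and PRMT1 library 2 was the highest PRMT1 library for 7 of 10. Without both of them, 8 members were higher and 1 lower (limma), the call of E2F5 being lost (log2 fold change 0.40, limma adjusted p = 0.0756).

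The table holds 13 other rows named E2F or TFDP, and none exceeded 0.2151 TPM. TFDP3, the third DP gene, was listed at 0 in all 6 libraries. Of the rest, 7 were at 0 throughout. The pseudogenes E2F3P2, E2F6P1, TFDP1P2 and TFDP1P3 and the antisense gene E2F5-DT were above 0 in 1 to 3 libraries each, with maxima of 0.215, 0.214, 0.139, 0.167 and 0.114 TPM. Little of the family's signal was therefore assigned to these copies.

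Among 9956 genes with a mean of at least 5 TPM, those whose log2(TPM + 1) over the 6 libraries was most like E2F1 were GRN, which encodes progranulin (Pearson r = 0.9973), the splicing factor SF3B2 (0.9963) and the channel gene HCN2 (0.9963). GRN went from 306 ± 28.8 to 216 ± 1.44 TPM (SD, n = 3 each). Those most like TFDP1 were the chromatin reader ZMYND8 (r = 0.9985), the checkpoint ATPase TRIP13 (0.9977) and UBAP2 (0.9962). An r above 0.95 was reached by 304 genes with E2F1 and by 1343 with TFDP1. These values rest on 6 libraries in 2 groups and describe the pattern only.

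Pocket proteins, which bind the transactivation domain of E2F1 to E2F5, included 1 gene of 3 past the threshold, which was higher, where 40.3% of all tested genes were. RBL1, the p107 gene and itself an E2F target, was at 3.92, 3.78 and 3.30 TPM in the controls against 9.97, 15.11 and 11.13 TPM in the PRMT1 libraries. All PRMT1 values were at least as high as 9.97 TPM and no control reached 4 TPM. The log2 difference was 1.47 (SE 0.16, adjusted p = 0.000419 by limma). RB1 (log2 fold change 0.48) and RBL2 (0.21) did not pass (limma adjusted p = 0.119 and 0.446), and after GC correction their values were −0.03 and −0.20. None of the 3 was lower, also at an unadjusted p under 0.05 (limma).

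The MuvB core joins E2F4 or E2F5, DP and a pocket protein in the repressive DREAM complex and later works with B-MYB and FOXM1. LIN9, LIN37, LIN52 and LIN54 were higher, with log2 fold changes of 0.78, 1.13, 1.26 and 1.08, and remained so after median-of-ratios scaling. LIN37, for example, went from 3.07 ± 0.337 to 7.88 ± 0.255 TPM and LIN52 from 11.2 ± 0.478 to 28.5 ± 4.25 TPM (SD, n = 3 each). LIN9 fell to 0.32 after GC correction (limma adjusted p = 0.0273) and lost its call when the replicate number was also in the fit. The abundant activator MYBL2 had 494 ± 43.0 and 509 ± 13.2 TPM and FOXM1 78.8 ± 9.56 and 83.5 ± 3.61 TPM (SD, n = 3 each), with log2 fold changes of 0.05 and 0.09 that did not pass as deposited (limma adjusted p = 0.640 and 0.493). MYBL1 (−0.04) and RBBP4 (0.04) did not pass either. The 4 higher genes were 50% of the 8, against 40.3% of all genes. Of the 8 genes 0 were lower as deposited, also at an unadjusted p (limma), but 3 were lower after median-of-ratios scaling, namely RBBP4, MYBL2 and FOXM1. These were 37.5% of the list, against 24.1% of all genes.

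Of 20 tested G1 cyclins, kinases and inhibitors, which set the phosphorylation of pocket proteins, 9 were higher and 3 lower as deposited, and 4 were higher and 8 lower after median-of-ratios scaling. The higher share was 45% against 40.3% of all genes as deposited, and 20% against 23.5% after scaling, and the lower share was 15% against 8.64% and 40% against 24.1%. The median log2 difference was 0.26, against 0.30 for all genes. CDKN1B, which encodes the kinase inhibitor p27, went from 17.3 ± 0.766 to 38.7 ± 4.61 TPM (SD, n = 3 each; log2 fold change 1.11). CDKN1C, the p57 gene, went the other way, from 51.0 ± 8.99 to 19.7 ± 2.19 TPM (−1.32). CDC25A, an activating phosphatase (0.72), and CCND1, cyclin D1 (0.59), were higher in both scalings, whereas CDK7 (0.67) and CDKN1A, the p21 gene (0.53), were not called after scaling. CDKN2A, the most abundant of the list, was lower (552 ± 31.1 to 425 ± 13.0 TPM, SD, n = 3 each; −0.38), a call lost after quantile normalization. The remaining lower gene, named after its values were seen, was CCND2, cyclin D2 (23.3 ± 1.12 to 17.3 ± 0.825 TPM, SD, n = 3 each; −0.41). CCNA1 and CDK3 were below the filter and not tested.

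Among 24 genes that modify E2F1 or act with it, 16 were higher and 1 lower as deposited, and 5 were higher and 4 lower after median-of-ratios scaling. The higher share was 66.7% against 40.3% of all genes as deposited, and 20.8% against 23.5% after scaling. The lower share was 4.17% against 8.64% as deposited, and 16.7% against 24.1% after scaling. Quantile normalization gave 10 higher and 1 lower of the 24, where 20.3% and 19.4% of all genes were called. GC correction gave 10 and 4, where 23.7% and 25.4% were. The list holds PRMT1 itself, which was transfected. CCNF, the F-box cyclin that targets E2F proteins for degradation, went from 14.6 ± 1.06 to 28.6 ± 1.24 TPM (SD, n = 3 each; log2 fold change 0.93). PRMT5, the symmetric arginine methyltransferase that also modifies E2F1, was at 133.1, 145.0 and 88.45 TPM in the controls against 222.0, 238.7 and 223.7 TPM with PRMT1 (0.93, limma adjusted p = 0.00349). Control library 3 was the lowest here as well. The acetyltransferase gene KAT5 (0.55) and CDC20 (0.38) were called as deposited and not after scaling, and NPDC1 was lower (−0.58).

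Partners of E2F6 include the Polycomb complex PRC1.6, EPC1 and the Polycomb protein EZH2, and 10 of 15 were higher as deposited and 8 after median-of-ratios scaling. These are 66.7% against 40.3% of all genes, and 53.3% against 23.5%. The median log2 fold change as deposited was 0.59, against 0.30 for all genes. L3MBTL2, a chromatin-binding subunit, went from 4.87 ± 0.326 to 16.8 ± 0.456 TPM (SD, n = 3 each; log2 fold change 1.602, limma adjusted p = 6.99e-05). MGA (1.23) and MAX (0.96), which form the other DNA-binding pair of the complex, and RING1 (0.80), its ubiquitin ligase, were higher as well, as were EPC1 (1.30) and EZH2 (0.84). CBX1, the most abundant, did not pass as deposited (−0.09) and was lower after scaling (−0.45, limma adjusted p = 0.00151). None was lower as deposited, also at an unadjusted p (limma), while 2 were lower after scaling and 5 after GC correction. Of all genes 24.1% and 25.4% were lower in these settings.

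Germline genes repressed by E2F6 were mostly silent, with 15 of 18 under the filter and DAZL, TDRD1 and TUBA3C listed at 0 in every library. Of the 3 tested, SYCE2, a synaptonemal complex gene, was higher (1.42, 1.61 and 0.702 TPM against 1.89, 4.58 and 2.77 TPM; log2 fold change 0.83, limma adjusted p = 0.0389), and the call was lost in 11 of the 20 settings. Among these were median-of-ratios scaling, quantile normalization, GC correction, no filter and the removal of control library 1 or 3 or of PRMT1 library 2 or 3. HORMAD1 (−0.10) and TDRKH (0.37) did not pass, with limma adjusted p = 0.745 and 0.05001. The TPM of SYCE2 is near the level of a few reads per kilobase. None of the 3 was lower as deposited, also at an unadjusted p (limma), and HORMAD1 was lower after GC correction (−0.62, limma adjusted p = 0.0378).

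Of 58 G1/S targets of E2F, 40 were higher and 2 lower as deposited, a share of 69.0% higher against 40.3% of all genes, with a median log2 fold change of 0.60 against 0.30. The lower share as deposited was 3.45% against 8.64%. After median-of-ratios scaling 27 were higher and 7 lower (median 0.25), or 46.55% and 12.1% against 23.5% and 24.1% of all genes. GC correction gave 28 higher and 10 lower, where 23.7% and 25.4% of all genes were called. DTL, an adaptor for degradation of replication factors, went from 29.4 ± 1.76 to 94.1 ± 11.8 TPM (SD, n = 3 each; 1.64), and the histone chaperone genes CHAF1A (1.54) and ASF1B (1.18) and the licensing factor CDC6 (1.23) were also higher. TIPIN, a fork protection factor (1.04), and the thymidine kinase TK1 (0.79) completed the 6 with the smallest p. The helicase subunit MCM7, the most abundant target, had 551 ± 55.5 and 608 ± 15.2 TPM (SD, n = 3 each; 0.15, limma adjusted p = 0.169). The 2 lower genes, named after their values were seen, were POLD1, a DNA polymerase subunit (143 ± 15.9 to 99.6 ± 4.03 TPM; −0.52), and RRM2, a ribonucleotide reductase subunit (238 ± 32.8 to 171 ± 22.4 TPM, SD, n = 3 each; −0.47).

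G2/M targets of DREAM, B-MYB and FOXM1 gave 19 higher and 1 lower of 28 as deposited, and 10 higher and 3 lower after median-of-ratios scaling. The higher share was 67.9% against 40.3% of all genes as deposited, and 35.7% against 23.5% after scaling, and the lower share was 3.57% against 8.64% and 10.7% against 24.1%. The median as deposited was 0.50, against 0.30 for all genes. The spindle midzone gene PRC1 went from 77.8 ± 3.86 to 160 ± 13.3 TPM (SD, n = 3 each; log2 fold change 1.02). CDC25C (0.89), CCNB1, cyclin B1 (0.64), and BUB1B (0.76) were higher in both scalings. CKS2, a cyclin-dependent kinase subunit and the most abundant of the list, was the lower one (2458 ± 85.2 to 1748 ± 72.7 TPM, SD, n = 3 each; −0.49).

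Of 20 apoptosis genes known as E2F1 targets, 9 were higher and 1 lower as deposited. The median was 0.43, against 0.30 for all genes. The higher share was 45% against 40.3% of all genes and the lower share 5% against 8.64%. After median-of-ratios scaling 6 were higher and 4 lower, or 30% and 20% against 23.5% and 24.1%. Quantile normalization gave 4 higher and 4 lower, where 20.3% and 19.4% of all genes were called. GC correction gave 6 and 6, where 23.7% and 25.4% were. CASP8AP2 (3.41 ± 0.193 to 9.07 ± 1.497 TPM, SD, n = 3 each; log2 fold change 1.18), CASP8 (0.99) and PPP1R13B (0.85) were higher. TP73, the p53 relative directly induced by E2F1, went from 5.96 ± 0.094 to 10.4 ± 0.404 TPM (SD, n = 3 each; 0.72), and CASP9 gave 0.61. CDKN2A, whose ARF product is an E2F1 target, was the lower gene. TP73, CASP9 and CDKN2A lost their calls after quantile normalization.

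**Figure D5:**
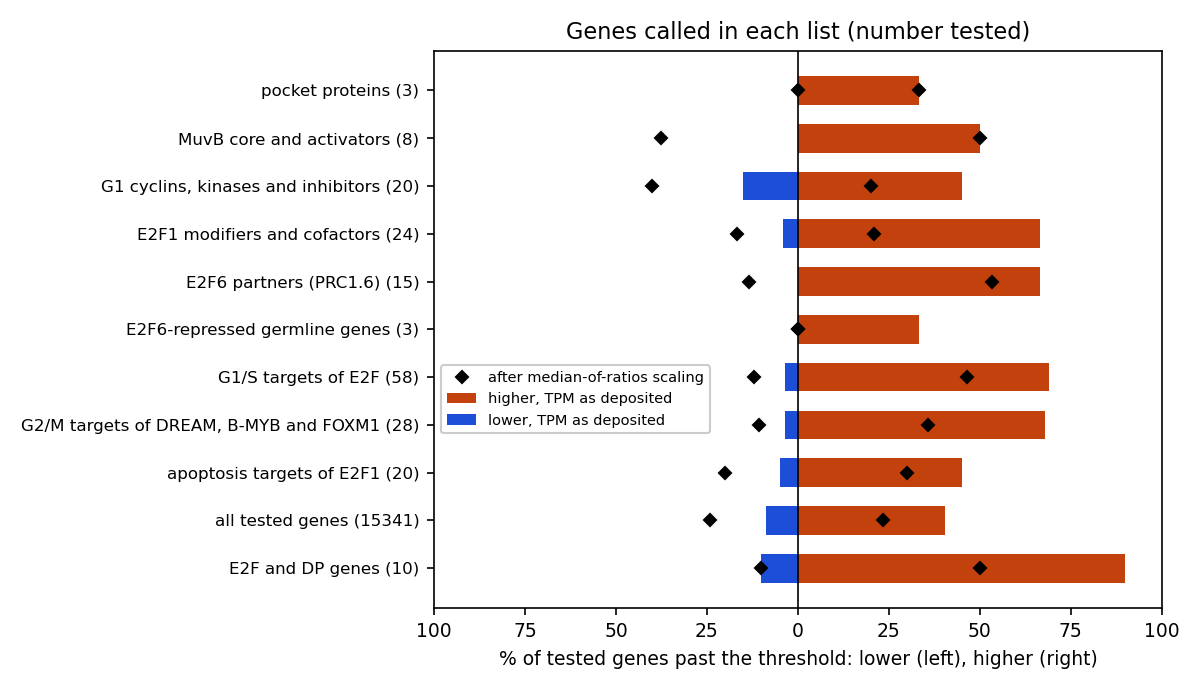
Percent of the tested genes of each list past the threshold, lower to the left and higher to the right, with bars for TPM as deposited and diamonds after median-of-ratios scaling. After scaling, 5 of 10 E2F and DP genes are higher and 1 lower, as are 27 and 7 of 58 G1/S targets, 8 and 2 of 15 E2F6 partners and 10 and 3 of 28 G2/M targets, while all tested genes become nearly even at 3605 higher and 3692 lower.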

How the data were processed

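The deposited table gives TPM per Ensembl gene and library, made by the authors from polyA-selected RNA. Per the submitters' processing notes, Trimmomatic 0.36, STAR 2.5.2b, featureCounts and Subread 1.5.2 were used with the build GRCh38. Not given in the sources used here are the annotation, the strand setting and the TPM computation. Every column matched 1 sample title. Coordinates, lengths and GC content came from GENCODE 29, which held 56898 of the 57500 identifiers. TPM multiplied by exonic length came in steps of a fixed size in each library (95.5 to 95.7% of values under 50 reads within 0.05 of a whole read), from which reads were recovered.

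A gene was tested if 3 or more of the 6 libraries reached 1 TPM. The groups were compared by limma 3.58.1 (R 4.3.3; log2(TPM + 1), trend, no covariate, Benjamini-Hochberg, threshold 0.05). The added 1 TPM understates the change of low genes. The fit was tested on simulated data in which 200 genes were changed by known amounts. The simulation had no shift between groups, no trend by level or GC content and no library that stands apart. It therefore does not show how the fit behaves under these features of the data. Same-numbered libraries of the 2 groups showed deviations with correlations of −0.03, 0.06 and 0.02. Those of libraries with different numbers ranged from −0.08 to 0.07. With 3 libraries per group these values cannot exclude pairing by number.

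Members and gene lists were chosen with earlier results of these data known. Named are all members, other E2F and TFDP rows above 0, every gene overlapping a member, all tested genes of lists of at most 8, otherwise the 6 with the smallest p among those past the threshold and the most abundant, and the 3 genes most like E2F1 and TFDP1. The 20 alternatives were quantile normalization, median-of-ratios scaling, GC correction, the replicate block, both of the last together, removal of PRMT1 or of mitochondrially encoded genes before rescaling, pseudocounts of 0.1 and 5 TPM, filtering at 5 TPM or not at all, array weights, no trend, each library left out, and both libraries that stand apart left out. Counts were also taken at a fold change of at least 1.5.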

Additional observations from a re-analysis of the deposited data

How the results depend on the processing

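E2F1, E2F2, E2F3, E2F6, E2F7 and E2F8 kept their direction and call in all 20 alternatives, E2F4 in 18, TFDP1 in 16, TFDP2 in 12 and E2F5 in 10. TFDP1 turned to −0.049 (log2) after median-of-ratios scaling and −0.054 after GC correction with or without the replicate block, and TFDP2 to −0.0052, −0.11 and −0.036 after median-of-ratios scaling, quantile normalization and GC correction with or without the block. The count of higher members was 9, and it was 5 after median-of-ratios scaling, after quantile normalization and at a fold change of at least 1.5, where 0 members were lower (limma) because E2F1 differed 1.29-fold. Leaving out 1 library gave 7 to 9 higher members and 1 lower. With the replicate block 9 members were higher and 1 lower, and the block changed no call of a member (TFDP2, limma adjusted p = 0.0495). It raised the higher pocket proteins from 1 to 2 of 3 and the higher germline genes from 1 to 2 of 3. The replicate numbers are not stated to pair cultures. Over all genes 6190 were higher and 1325 lower. The counts were 3605 and 3692 after median-of-ratios scaling, 3109 and 2979 after quantile normalization, 3613 and 3878 after GC correction, and 3268 and 3651 with GC correction and block. The lower genes numbered 880 without PRMT1, 2838 with array weights, 2115 without both libraries that stand apart and 386 at 1.5-fold. Lower G1/S targets, 2 as deposited, numbered 7 after median-of-ratios scaling, 10 after GC correction, 9 with GC correction and block, 5 with array weights or without both libraries, 1 without a filter and 0 at 1.5-fold, and 1 to 3 with 1 library left out (1 without control library 1 or 2 or PRMT1 library 1 or 3). Higher G2/M targets, 19 as deposited, numbered 10 after median-of-ratios scaling and 11 after GC correction, with GC correction and block, and at 1.5-fold. The lower ones, 1 as deposited, numbered 3, 6, 4 and 0 in these settings. They numbered 2 with the block, with array weights, without mitochondrially encoded genes and without both libraries, and 1 to 2 with 1 library left out (2 without PRMT1 library 2). The causes were not tested. Depth limits E2F8 most, with 43 to 245 reads.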
